A study of Mus musculus with 36 samples.

Results

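Synaptic vesicles store neurotransmitter in the nerve terminal and release it by fusing with the membrane, and 46 genes of this vesicle and release machinery were followed in CKp25 and CK mouse hippocampus. The genes were chosen by name, with earlier results of these data known. They fall into 7 roles, from proteins of the vesicle membrane to those that retrieve the vesicle after fusion. All 46 were found by symbol among the 37991 genes of the count table, and all 46 passed the filter on low counts, which left 14457 genes to test. RNA had been sequenced from hippocampus in 4 groups of 3 libraries each: CKp25 at 2 weeks, CK at 2 weeks, CKp25 at 6 weeks and CK at 6 weeks after p25 was induced. Per the labels, the animals were female, 3 months old and either double-transgenic for CK-p25 or control littermates, labelled CK. The protein p25 is a truncated activator of the kinase Cdk5. In this line, as background, it is placed under the Camk2a promoter of forebrain excitatory neurons through a doxycycline-controlled driver, so that induced cells are mainly excitatory neurons. The labels do not say which transgene the CK animals carried, nor whether the age is that at induction or at collection. Each time after induction was sampled in its own libraries, so time, the animals' age and any batch that goes with time cannot be told apart.

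A vesicle is filled with glutamate or another transmitter by a transporter in its membrane, held near the release site by synapsins and Rab3 proteins, and docked at the active zone, a protein scaffold on the inner face of the terminal. There, Munc13 and RIM proteins prepare it for fusion, SNARE proteins pull the membranes together, and synaptotagmins trigger fusion when calcium enters. Dynamin and its partners then pinch the membrane off again for another cycle. In the hippocampus most terminals are glutamatergic, and inhibitory interneurons use much of the same machinery.

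The 12 libraries held 5029996 to 6450140 reads assigned to genes. A member gene received between 41 reads (Sv2c in CKp25_6wk_4008) and 7324 reads (Snap25 in CK_2wk_4520) in a library. Levels are in CPM, reads per 1000000 reads assigned to genes, with the library size scaled by TMM factors. They are not divided by gene length, so each gene is compared only with itself or as a ratio within a library. Exceptions are a correlation with level and the sums over gene lists, to which the genes with most reads add most. The libraries are named by group and number. Nothing says that a number is an animal, so p-values measure the spread between these libraries, part of which may be technical. Among the libraries of 2 weeks, CKp25_2wk_4518 and CK_2wk_4520 had 6.81% and 7.15% of reads at several places in the genome, and the other 4 had 12.2% to 14.3%. At 6 weeks that share was 11.5% to 13.9% in CKp25 and 6.86% to 9.52% in CK, without overlap. Reads outside genes at 6 weeks were 38.1% to 40.2% in CKp25 and 41.6% to 46.1% in CK, also without overlap. At that time genotype and any difference in library preparation that goes with these shares cannot be told apart. All 3 libraries of each group are used below. Lost calls are named with the fit that lost them, or counted where many fits did. These fits include that without both CKp25_2wk_4518 and CK_2wk_4520 and that with the share of reads at several places as a covariate.

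The presynaptic genes were lower in CKp25 than in CK at both times, and none was called higher. At 2 weeks, 25 of 46 were lower by edgeR's quasi-likelihood test at an adjusted p under 0.05, when 7.99% of all genes tested were lower and 11.6% higher. At 6 weeks, 33 of 46 were lower, when 15.2% of all genes were lower and 18.1% higher. The median log2 fold change of the 46 was -0.31 at 2 weeks and -0.44 at 6 weeks, beside -0.01 and 0.00 over all genes. Reads of the 46 genes made up 1.20% to 1.31% of gene counts in CKp25 libraries at 2 weeks, against 1.45% to 1.46% in CK libraries. At 6 weeks they made up 0.945% to 1.16% in CKp25 libraries, against 1.40% to 1.49% in CK libraries. In tissue RNA, fewer neurons and less RNA per cell cannot be told apart, and the number of terminals was not measured.

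Called at both times were 20 genes, at 6 weeks alone 13, at 2 weeks alone 5 and at neither 8. At an unadjusted p under 0.05, 37 members passed at 2 weeks and 34 at 6 weeks, beside 4548 and 6118 of all 14457 genes tested. The libraries of CKp25 lay entirely below those of CK for 36 members at 2 weeks (17.8% of all genes) and for 34 at 6 weeks (21.6% of all genes). At 2 weeks the 5 lowest log2 fold changes were those of Slc17a7 (-0.55), Unc13a (-0.54), Syt7 (-0.50), Syt5 (-0.45) and Sv2b (-0.42). At 6 weeks they were those of Cplx2 (-0.78), Slc17a7 (-0.76), Unc13a (-0.76), Bsn (-0.71) and Nsf (-0.67). Only 2 members fell below -0.5 at 2 weeks, and 17 did at 6 weeks. The 2 comparisons use separate libraries, and across the 46 genes their log2 fold changes had a Pearson correlation of 0.604 and a Spearman correlation of 0.510. The genes of a library share its composition and depth. The count at 2 weeks depended on single libraries, being 16 without CK_2wk_4893 and 17 without CKp25_2wk_4894. Without both CKp25_2wk_4518 and CK_2wk_4520 it was 25, of which 22 were among those called with all libraries. The count was 30 by DESeq2 and 28 by limma-voom, and 10 of the 21 members not called at 2 weeks were called in at least 1 of 21 alternatives.

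**Figure D1:**
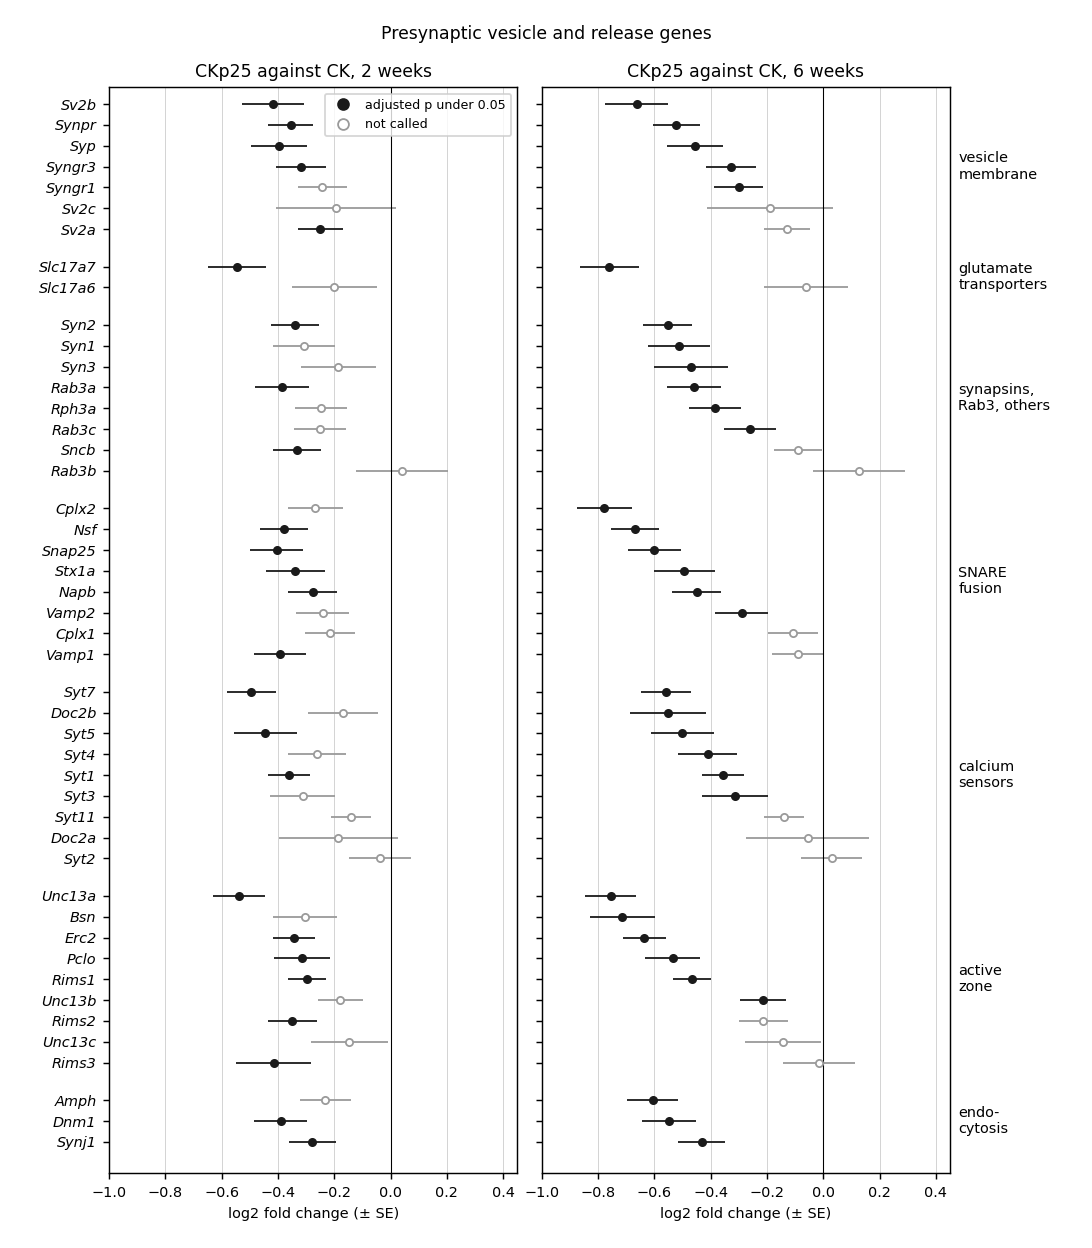
Log2 fold change (horizontal axis) of each of the 46 genes in CKp25 against CK at 2 weeks (left) and 6 weeks (right), with bars for 1 SE and filled points for an adjusted p under 0.05. Genes are grouped by role, and nearly all points lie left of 0, with 25 filled points at 2 weeks and 33 at 6 weeks.

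Glutamate loading was represented by 2 genes, of which 1 was lower at each time. Slc17a7 (ENSMUSG00000070570), which encodes VGLUT1, the vesicular glutamate transporter of most hippocampal and cortical excitatory neurons, had 566, 547 and 534 CPM in CKp25 libraries at 2 weeks, against 747, 813 and 844 CPM in CK libraries (libraries in order of their numbers, here and below). It had 355, 514 and 452 CPM in CKp25 libraries at 6 weeks, against 778, 746 and 714 CPM in CK libraries. All 6 CKp25 libraries lay below all 6 CK libraries, and the lowest was CKp25_6wk_3937. The mean fell to 549 ± 16.02 CPM in CKp25, against 801 ± 49.3 CPM in CK, at 2 weeks (SD, n = 3 each), a log2 fold change of -0.55 ± 0.10 (SE; adjusted p = 0.00112). At 6 weeks it fell to 440.1 ± 80.2 CPM, against 746 ± 31.8 CPM (-0.76 ± 0.10, adjusted p = 3.42e-05), a decrease of 41.0% where that at 2 weeks was 31.5%. Slc17a6, which encodes VGLUT2, the form typical of subcortical neurons, averaged 21.0 ± 1.71 CPM in CKp25 and 24.2 ± 4.81 CPM in CK at 2 weeks. At 6 weeks it averaged 25.1 ± 3.68 CPM in CKp25 and 26.4 ± 3.34 CPM in CK. Its groups overlapped and it was not called (-0.20 ± 0.15 and -0.06 ± 0.15, adjusted p = 0.402 and 0.793).

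Of 7 genes for proteins of the vesicle membrane, 5 were lower at each time, with medians of -0.32 at 2 weeks and -0.33 at 6 weeks on the log2 scale. Synpr (ENSMUSG00000056296), which encodes synaptoporin, a relative of synaptophysin abundant in mossy fibre terminals of the hippocampus, had 64.7, 73.1 and 63.6 CPM in CKp25 libraries at 2 weeks, against 85.0, 89.0 and 83.3 CPM in CK libraries. Its levels were 50.4, 59.3 and 60.01 CPM in CKp25 libraries at 6 weeks, against 84.6, 81.5 and 78.2 CPM in CK libraries. No CKp25 library reached the lowest CK library at either time, and the log2 fold changes were -0.36 ± 0.08 (adjusted p = 0.00476) and -0.52 ± 0.08 (adjusted p = 0.000136). Sv2b (ENSMUSG00000053025), which encodes a glycoprotein of the vesicle membrane that supports normal release, had 393, 433 and 418 CPM in CKp25 libraries at 2 weeks, against 501, 571 and 588 CPM in CK libraries. At 6 weeks Sv2b had 261, 379.6 and 345 CPM in CKp25 libraries, against 556, 491 and 515 CPM in CK libraries. CKp25_6wk_3937 was again the lowest of all, and the groups did not overlap. The log2 fold change of Sv2b was -0.42 ± 0.11 at 2 weeks (adjusted p = 0.0125) and -0.66 ± 0.11 at 6 weeks (adjusted p = 0.000217).

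Syp, the gene for synaptophysin, the classical vesicle marker, was lower at both times (-0.40 and -0.46), as was Syngr3 of the synaptogyrin family (-0.32 and -0.33). Its relative Syngr1 was called at 6 weeks (-0.30) and had -0.24 at 2 weeks (adjusted p = 0.0607). Sv2a, which encodes the protein bound by the drug levetiracetam, was called at 2 weeks (-0.25) and had -0.13 at 6 weeks (adjusted p = 0.243). Sv2c, the family member most restricted to the basal ganglia and brain stem, averaged 9.56 ± 2.44 CPM in CKp25 and 11.01 ± 1.04 CPM in CK at 6 weeks and was not called at either time. At 2 weeks the call of Sv2b was lost without CK_2wk_4893 (-0.38), as were those of Syngr3 without CKp25_2wk_4518, CKp25_2wk_4894, CK_2wk_4891 or CK_2wk_4893 (-0.28, -0.27, -0.28 and -0.32). That of Sv2a was lost without any of the same 4 libraries (-0.21, -0.24, -0.22 and -0.25) or without CKp25_6wk_4008 (-0.25), without both CKp25_2wk_4518 and CK_2wk_4520 (-0.25, adjusted p = 0.0913), and with upper quartile scaling (-0.23, adjusted p = 0.0531). Syngr1 at 6 weeks was not called without CKp25_6wk_3937 (-0.21) or CK_6wk_3936 (-0.28).

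Among 8 synapsin, Rab3 and vesicle-associated genes, 3 were lower at 2 weeks and 6 at 6 weeks (medians -0.28 and -0.42). Rab3a (ENSMUSG00000031840), which encodes the most abundant Rab GTPase of synaptic vesicles, had 203, 223 and 206 CPM in CKp25 libraries at 2 weeks, against 257, 284 and 284 CPM in CK libraries. The 6-week values of Rab3a were 158, 223 and 190.4 CPM in CKp25 libraries, against 271, 254 and 262 CPM in CK libraries. The groups did not overlap at either time, but the spread was widest in CKp25 at 6 weeks. Rab3a had log2 fold changes of -0.38 ± 0.10 (adjusted p = 0.00860) and -0.46 ± 0.10 (adjusted p = 0.00141). Syn2 (ENSMUSG00000009394), which encodes synapsin 2, a phosphoprotein that tethers the reserve pool of vesicles, had 408, 406 and 393 CPM in CKp25 libraries at 2 weeks, against 498, 505 and 523 CPM in CK libraries. For 6 weeks the Syn2 values were 294, 374 and 345 CPM in CKp25 libraries, against 522, 507 and 458 CPM in CK libraries. All CKp25 libraries lay below all CK libraries, and the log2 fold changes were -0.34 ± 0.09 (adjusted p = 0.00938) and -0.55 ± 0.09 (adjusted p = 0.000111).

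The other synapsins were called at 6 weeks only, Syn1 at -0.51 ± 0.11 (adjusted p = 0.00171) and Syn3 at -0.47 ± 0.13 (adjusted p = 0.0114), beside -0.31 and -0.19 at 2 weeks (adjusted p = 0.0594 and 0.375). Rph3a, which encodes the Rab3 effector rabphilin, and Rab3c were also called at 6 weeks (-0.39 and -0.26) and had -0.25 and -0.25 at 2 weeks (adjusted p = 0.0725 and 0.0636). Sncb, the gene for beta-synuclein, was called at 2 weeks (-0.33 ± 0.08, adjusted p = 0.00974) and not at 6 weeks (-0.09 ± 0.09, adjusted p = 0.467). Rab3b had the highest log2 fold change of the 46 genes at each time (0.04 ± 0.16 and 0.13 ± 0.16) and was not called. Its level averaged 23.5 ± 5.08 CPM in CKp25 and 21.7 ± 2.81 CPM in CK at 6 weeks. The Sncb call was lost without CK_2wk_4893 (-0.30) and without both CKp25_2wk_4518 and CK_2wk_4520 (-0.32, adjusted p = 0.0502). The Syn3 call was lost without CKp25_6wk_3937 (-0.41) and with the covariate of reads at several places, which gave -0.28 (adjusted p = 0.197). The Rab3c call was lost without CKp25_6wk_3937, CKp25_6wk_4008, CK_6wk_3936 or CK_6wk_3938 (-0.23, -0.22, -0.22 and -0.25), and with that covariate it was -0.17 (adjusted p = 0.260). At 2 weeks Syn1 was called in 7 of 21 alternatives, among them DESeq2 (adjusted p = 0.0420), and Rab3c in 6.

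The SNARE fusion machinery had 5 of 8 genes lower at 2 weeks and 6 at 6 weeks (medians -0.31 and -0.47). Nsf (ENSMUSG00000034187), which encodes the ATPase that takes spent SNARE complexes apart, had 727, 683 and 677 CPM in CKp25 libraries at 2 weeks, against 876, 906 and 933 CPM in CK libraries. Nsf had 495, 629 and 596 CPM in CKp25 libraries at 6 weeks, against 926, 941 and 868 CPM in CK libraries. The highest CKp25 library of either time was below the lowest CK library. The fall was -0.38 ± 0.09 on the log2 scale at 2 weeks (adjusted p = 0.00410) and -0.67 ± 0.09 at 6 weeks (adjusted p = 1.64e-05). Cplx2 (ENSMUSG00000025867), which encodes complexin 2, a small protein that clamps assembled SNARE complexes until calcium arrives, had 632, 557 and 566 CPM in CKp25 libraries at 2 weeks, against 699, 719.7 and 695 CPM in CK libraries. Its values at 6 weeks were 351, 438 and 410.1 CPM in CKp25 libraries, against 695, 766 and 596 CPM in CK libraries. Within each time the groups did not overlap, and every CKp25 library of 6 weeks was below every CKp25 library of 2 weeks. Cplx2 was not called at 2 weeks (-0.27 ± 0.10, adjusted p = 0.0652) and had the lowest log2 fold change of the 46 genes at 6 weeks (-0.78 ± 0.10, adjusted p = 1.54e-05), a decrease of 41.7%. At 2 weeks Cplx2 was called in 8 of 21 alternatives, among them DESeq2 (-0.26, adjusted p = 0.0278), limma-voom (-0.27, adjusted p = 0.0483) and the fit without CKp25_2wk_4518 (-0.33, adjusted p = 0.0349).

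The core SNARE genes Snap25 and Stx1a were lower at both times (-0.40 and -0.60; -0.34 and -0.49), as was Napb, which encodes the beta form of the SNAP adaptor of Nsf (-0.28 and -0.45). Snap25 averaged 848 ± 122 CPM in CKp25 and 1286 ± 49.2 CPM in CK at 6 weeks. The 2 vesicle SNARE genes were called at different times. Vamp2, for the main vesicle SNARE of the forebrain, was called at 6 weeks (-0.29, adjusted p = 0.0264) and had -0.24 at 2 weeks (adjusted p = 0.0844). Vamp1, for the related vesicle SNARE that prevails in spinal cord and brain stem, had 55.1, 53.6 and 52.6 CPM in CKp25 libraries at 2 weeks, against 68.4, 74.9 and 68.9 CPM in CK libraries (-0.39 ± 0.09, adjusted p = 0.00561). At 6 weeks Vamp1 had 66.0, 62.2 and 66.7 CPM in CKp25 libraries, against 58.2, 77.5 and 71.6 CPM in CK libraries, and the groups overlapped (-0.09 ± 0.09, adjusted p = 0.491). Cplx1 was not called at either time (-0.22 and -0.11). At 2 weeks the calls of Napb and Stx1a were lost without CKp25_2wk_4894 (-0.23 and -0.29), CK_2wk_4891 (-0.30 and -0.26) or CK_2wk_4893 (-0.25 and -0.32). Napb was also lost without CKp25_2wk_4890 (-0.28) and Stx1a without CKp25_2wk_4518 (-0.30). The 6-week call of Vamp2 was lost without CKp25_6wk_3937, CKp25_6wk_4008 or CK_6wk_3936 (-0.28, -0.25 and -0.17).

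Calcium sensors were called lower in 3 of 9 cases at 2 weeks and in 6 of 9 at 6 weeks (medians -0.26 and -0.36). Syt7 (ENSMUSG00000024743), which encodes the slow, high-affinity synaptotagmin linked to asynchronous release and facilitation, had 233, 201 and 188 CPM in CKp25 libraries at 2 weeks, against 293, 295 and 290.0 CPM in CK libraries. It stood at 177, 215 and 208 CPM in CKp25 libraries at 6 weeks, against 292, 311 and 282 CPM in CK libraries. CKp25 levels covered much the same range at both times and lay below CK throughout, with log2 fold changes of -0.50 ± 0.09 (adjusted p = 0.000588) and -0.56 ± 0.09 (adjusted p = 0.000123). Syt5 (ENSMUSG00000004961), for another calcium-binding synaptotagmin, had 46.2, 55.6 and 51.3 CPM in CKp25 libraries at 2 weeks, against 63.4, 75.3 and 69.7 CPM in CK libraries. In CKp25 libraries at 6 weeks Syt5 had 43.6, 50.1 and 51.3 CPM, against 72.4, 56.6 and 76.1 CPM in CK libraries. The lowest CK library of 6 weeks, CK_6wk_3938, was close to the highest CKp25 library, and the groups did not overlap (-0.45 ± 0.11, adjusted p = 0.00844; -0.50 ± 0.11, adjusted p = 0.00234).

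Syt1, for the fast calcium sensor of most forebrain synapses, averaged 801 ± 25.3 CPM in CKp25 and 1028 ± 41.7 CPM in CK at 2 weeks, and 770.4 ± 67.0 CPM in CKp25 and 987 ± 14.6 CPM in CK at 6 weeks, with equal log2 fold changes to 2 decimals (-0.36 ± 0.08 and -0.36 ± 0.08). Syt2, for the fast sensor of brain stem and some interneuron terminals, was not called (-0.04 ± 0.11 and 0.03 ± 0.11). Syt3, Syt4 and Doc2b were called at 6 weeks only (-0.31, -0.41 and -0.55), beside -0.31, -0.26 and -0.17 at 2 weeks. Doc2b encodes a high-affinity calcium sensor of spontaneous release. Doc2a and Syt11 were not called at either time (-0.19 and -0.06; -0.14 and -0.14). The call of Syt3 had an adjusted p of 0.0491 and was lost in 13 of 21 alternatives, including DESeq2 and limma-voom. Among these were the fits without any 1 of CKp25_6wk_3937, CKp25_6wk_4008, CK_6wk_3936, CK_6wk_3938 or CK_6wk_4009 (-0.23, -0.29, -0.25, -0.36 and -0.34), and without CKp25_2wk_4890, CKp25_2wk_4894, CK_2wk_4891 or CK_2wk_4893 (-0.32 in each).

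At the active zone 6 of 9 genes were lower at each time (medians -0.31 and -0.47). Unc13a (ENSMUSG00000034799), which encodes Munc13-1, the main vesicle priming factor of hippocampal excitatory synapses, had 355, 296 and 297 CPM in CKp25 libraries at 2 weeks, against 466, 455 and 458 CPM in CK libraries. Unc13a levels at 6 weeks were 250.2, 291 and 278 CPM in CKp25 libraries, against 436, 516 and 432 CPM in CK libraries. No library of CKp25 came within the range of CK, and the log2 fold changes were -0.54 ± 0.09 (adjusted p = 0.000402) and -0.76 ± 0.09 (adjusted p = 1.04e-05). Erc2 (ENSMUSG00000040640), for the active zone scaffold ELKS2, had 200.0, 185 and 190.2 CPM in CKp25 libraries at 2 weeks, against 251, 228 and 251 CPM in CK libraries. The same gene had 139.6, 156 and 163 CPM in CKp25 libraries at 6 weeks, against 242, 251 and 220.4 CPM in CK libraries. The levels of CKp25 were below those of CK at both times and lowest at 6 weeks (-0.34 ± 0.08, adjusted p = 0.00381; -0.64 ± 0.08, adjusted p = 9.80e-06). Bsn (ENSMUSG00000032589), for the giant scaffold bassoon, had 806, 609 and 646 CPM in CKp25 libraries at 2 weeks, against 879.9, 816 and 847 CPM in CK libraries. Counts of Bsn at 6 weeks gave 522, 575 and 534 CPM in CKp25 libraries, against 851, 1057 and 767 CPM in CK libraries. At 2 weeks CKp25_2wk_4518 was close to the CK libraries and Bsn was not called (-0.30 ± 0.11, adjusted p = 0.0724), while at 6 weeks it was called at -0.71 ± 0.11 (adjusted p = 0.000141). At 2 weeks Bsn was called in 8 of 21 alternatives, among them DESeq2 (-0.30, adjusted p = 0.0327) and the fit without CKp25_2wk_4518 (-0.43, adjusted p = 0.00850).

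Pclo, for piccolo, the partner scaffold of bassoon, and Rims1, for the RIM protein that links vesicles to calcium channels, were lower at both times (-0.31 and -0.54; -0.30 and -0.47). Rims2 was called at 2 weeks (-0.35) and had -0.21 at 6 weeks (adjusted p = 0.0677). Rims3, for a short RIM form, had 55.2, 75.1 and 57.4 CPM in CKp25 libraries at 2 weeks, against 72.6, 99.4 and 78.0 CPM in CK libraries, which overlapped (-0.42 ± 0.13, adjusted p = 0.0347). At 6 weeks Rims3 had 95.8, 84.5 and 81.8 CPM in CKp25 libraries, against 87.5, 76.9 and 99.9 CPM in CK libraries (-0.02 ± 0.13, adjusted p = 0.948). The relatives of Unc13a had log2 fold changes nearer to 0. Unc13b had -0.18 at 2 weeks (adjusted p = 0.132) and -0.21 at 6 weeks (adjusted p = 0.0494), and Unc13c, which is best known from the cerebellum, was not called (-0.15 and -0.14). The 6-week call of Unc13b was lost in 16 of 21 alternatives, including each fit without a 6-week library other than CK_6wk_4009 (-0.23, -0.21, -0.21, -0.25 and -0.14) and those without CKp25_2wk_4890, CK_2wk_4520, CK_2wk_4891 or CK_2wk_4893 (-0.22 in each). With the covariate of reads at several places Unc13b was at -0.11 (adjusted p = 0.421), and DESeq2 and limma-voom did not call it at 6 weeks. At 2 weeks Pclo was not called without CKp25_2wk_4890, CKp25_2wk_4894, CK_2wk_4520 or CK_2wk_4893 (-0.26, -0.28, -0.28 and -0.32), nor Rims2 without CKp25_2wk_4894 (-0.30). Rims3 at 2 weeks was not called without CKp25_2wk_4518, CKp25_2wk_4894, CK_2wk_4891 or CK_2wk_4893 (-0.33, -0.35, -0.27 and -0.47), without both CKp25_2wk_4518 and CK_2wk_4520 (-0.43, adjusted p = 0.0574), or with upper quartile scaling (-0.40, adjusted p = 0.0502).

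All 3 genes of vesicle retrieval were lower at 6 weeks (median -0.55), and 2 of them at 2 weeks (median -0.28). Dnm1 (ENSMUSG00000026825), which encodes dynamin 1, the GTPase that cuts vesicles from the terminal membrane, had 593, 585 and 599 CPM in CKp25 libraries at 2 weeks, against 721, 793 and 816 CPM in CK libraries. Dnm1 levels were 466, 612 and 511 CPM in CKp25 libraries at 6 weeks, against 788, 828 and 707 CPM in CK libraries. The groups were apart at both times (-0.39 ± 0.10, adjusted p = 0.00734; -0.55 ± 0.10, adjusted p = 0.000301). Amph (ENSMUSG00000021314), for amphiphysin, which brings dynamin to curved membrane, had 164, 157 and 159 CPM in CKp25 libraries at 2 weeks, against 187, 183 and 193 CPM in CK libraries. By 6 weeks Amph was at 104, 145 and 136 CPM in CKp25 libraries, against 196, 197 and 194 CPM in CK libraries. The groups did not overlap at either time, and at 6 weeks the CK libraries lay close together while CKp25_6wk_3937 was lowest (-0.23 ± 0.09, adjusted p = 0.0821; -0.61 ± 0.09, adjusted p = 7.87e-05). Synj1, for the phosphatase synaptojanin 1 that strips the clathrin coat, was called at both times (-0.28 and -0.43). Its 2-week call was lost without CKp25_2wk_4890, CKp25_2wk_4894, CK_2wk_4891 or CK_2wk_4893 (-0.28, -0.25, -0.28 and -0.27).

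**Figure D2:**
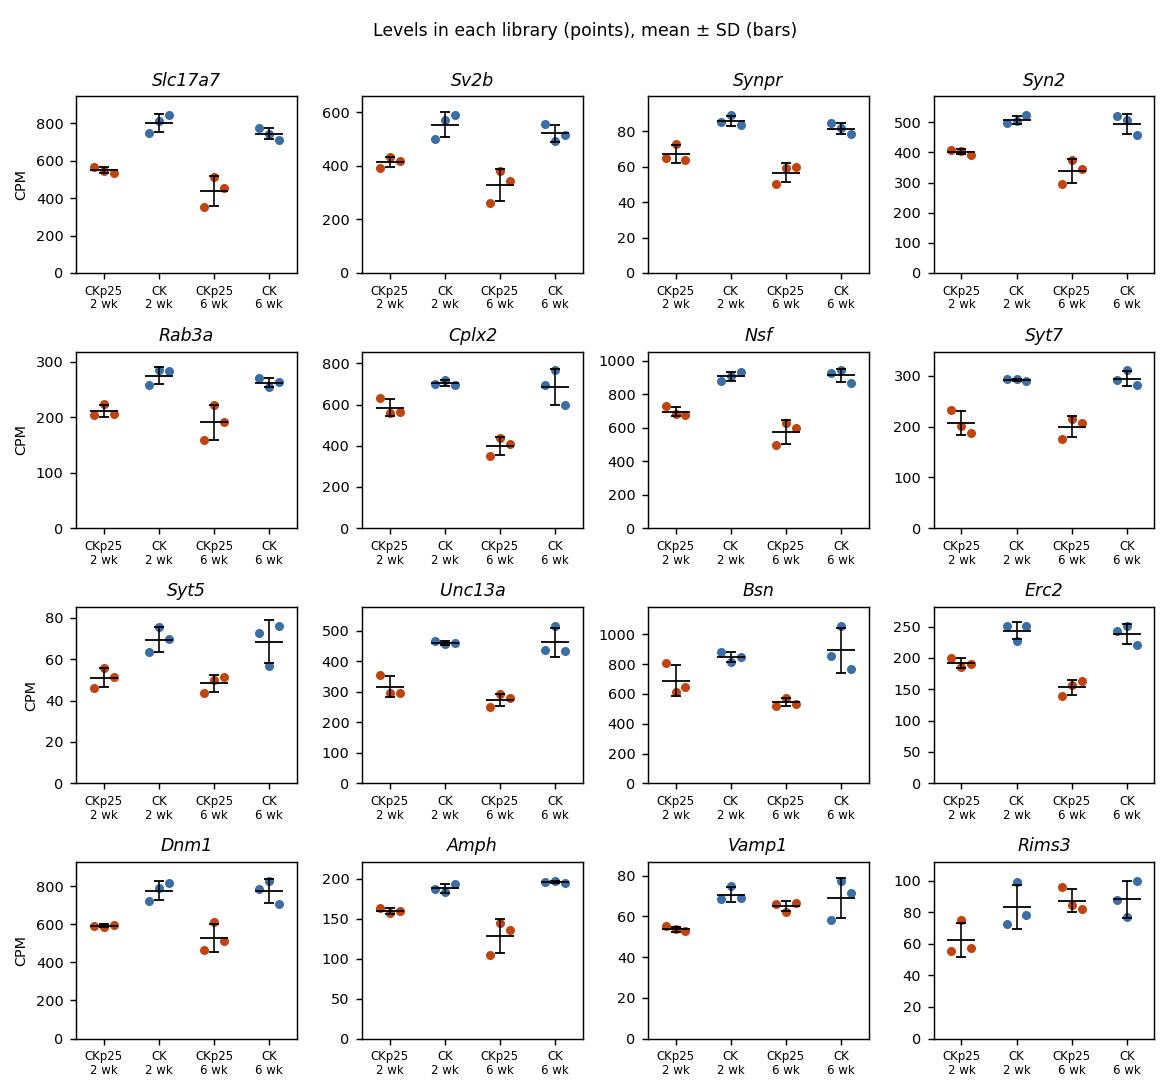
Levels of 16 genes in CPM (vertical axes, starting at 0) in each library (points), with group mean and SD (bars), for CKp25 and CK at 2 and 6 weeks. The 14 genes given in full above are joined by Vamp1 and Rims3, which were called at 2 weeks only. For Slc17a7 the 6 CKp25 libraries all lie below the 6 CK libraries, while the 6-week points of Vamp1 and Rims3 overlap.

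Whether the difference from CK changed between the times was asked directly. The log2 fold change was lower at 6 weeks than at 2 weeks for 32 of 46 genes, but none passed the test of the difference by edgeR, when 0.553% of all genes did. Of the 46, 7 had an unadjusted p under 0.05, beside 2077 of all 14457 genes tested. The lowest adjusted p was that of Cplx2, whose effect was -0.51 ± 0.14 apart on the log2 scale (adjusted p = 0.0951). DESeq2 called Cplx2 alone (adjusted p = 0.00897), and without the filter on low counts edgeR called Cplx2 (0.00432) and Bsn (0.0435). Cplx2 also passed without CKp25_6wk_3940 (-0.60, adjusted p = 0.0407) and with the choroid plexus covariate (adjusted p = 0.0379). The genes called at 1 time only are therefore not shown to differ between times. For Vamp1, Rims3 and Sncb, singled out after their values were seen, the difference was 0.30 ± 0.13, 0.40 ± 0.18 and 0.24 ± 0.12 (adjusted p = 0.296, 0.333 and 0.372).

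Within CKp25, 5 genes were lower at 6 weeks than at 2 weeks (5.53% of all genes were) and 2 were higher (6.12% of all genes). Those lower were Doc2b (-0.63 ± 0.13, adjusted p = 0.00494), Cplx2 (-0.55 ± 0.10, adjusted p = 0.00176), Erc2 (-0.33 ± 0.08, adjusted p = 0.0108), Amph (-0.32 ± 0.09, adjusted p = 0.0324) and Nsf (-0.28 ± 0.09, adjusted p = 0.0429). Doc2b had 21.2, 24.3 and 23.6 CPM at 6 weeks, against 39.4, 32.3 and 35.6 CPM at 2 weeks. In CK the Doc2b mean was also lower at 6 weeks, at 34.0 ± 6.84 CPM, against 40.3 ± 1.80 CPM at 2 weeks (SD, n = 3 each). Those higher were Rims3 (0.49 ± 0.13, adjusted p = 0.0231) and Syt2 (0.38 ± 0.11, adjusted p = 0.0304), whose levels were 46.4, 50.4 and 41.1 CPM at 6 weeks, against 36.7, 38.8 and 30.9 CPM at 2 weeks. Syt2 was also higher at 6 weeks in CK, with means of 45.2 ± 4.85 CPM, against 36.4 ± 1.06 CPM at 2 weeks. So its rise is not particular to CKp25. Rims3 averaged 88.1 ± 11.5 CPM in CK at 6 weeks, against 83.3 ± 14.2 CPM at 2 weeks. In CK no gene of the whole table was called between the times by edgeR (0% of all genes). There 1 member had an unadjusted p under 0.05, beside 560 of all 14457 genes tested. DESeq2 and limma-voom called no member there either. The count of lower members within CKp25 turned on single libraries: it was 16 without CKp25_6wk_3940, 2 without CKp25_6wk_3937, and 3 without either CKp25_2wk_4518 or CKp25_2wk_4894. Of the 2 higher, neither was called without CKp25_2wk_4518 (0.39 for Rims3 and 0.39 for Syt2) or CKp25_2wk_4894 (0.41 and 0.27), and Syt2 was not called without CKp25_6wk_3940 (0.28). Calls lost without CKp25_6wk_3937 were those of Nsf (-0.18), Amph (-0.19), Erc2 (-0.27), Rims3 (0.42) and Syt2 (0.37). Amph was also lost without CKp25_2wk_4518, CKp25_2wk_4890 or CKp25_2wk_4894 (-0.31, -0.33 and -0.34), and Nsf in 10 of 20 alternatives. Without both CKp25_2wk_4518 and CK_2wk_4520 the calls of Amph, Nsf, Rims3 and Syt2 were lost, and DESeq2 did not call Syt2. The Nsf values without CKp25_2wk_4518, CKp25_2wk_4890, CKp25_2wk_4894 or CKp25_6wk_4008 were -0.26, -0.29, -0.32 and -0.31, and without CK_2wk_4520, CK_2wk_4891, CK_2wk_4893 or CK_6wk_3936 it was -0.28 in each. The calls of Cplx2 and Doc2b were kept in all 20 alternatives run for them.

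The CKp25 libraries of 6 weeks differed among themselves in these genes. Of the 3, CKp25_6wk_3937 was lowest for 34 of 46 genes and CKp25_6wk_3940 was highest for 38. The summed level of the 46 genes was 9510 CPM in CKp25_6wk_3937, 11670.4 CPM in CKp25_6wk_3940 and 10528 CPM in CKp25_6wk_4008, against 14178 to 15420.5 CPM in CK libraries. So the 3 CKp25 libraries were spread over a range, all of it below CK. Summed levels of microglial markers ran the other way, at 2258 CPM in CKp25_6wk_3937, 1656 CPM in CKp25_6wk_3940 and 1689 CPM in CKp25_6wk_4008, against 296 to 331 CPM in CK libraries. The astrocyte and oligodendrocyte sums of CKp25_6wk_3937, at 13614 and 5451 CPM, were also the highest of its group. The part of these cells in the levels of the presynaptic genes was not tested. Without CKp25_6wk_3937, 27 presynaptic genes were lower at 6 weeks (median -0.35 on the log2 scale), and without CKp25_6wk_3940, 32 were lower (median -0.53). The coefficient of variation had a median over the 46 genes of 7.32% in CKp25 and 5.05% in CK at 2 weeks, and of 9.995% in CKp25 and 7.67% in CK at 6 weeks.

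Some related genes had unlike fold changes, which the ratio of their read counts within a library gives without regard to library size. These pairs were chosen after the values had been seen and are given as a description. In each pair the first gene had more reads than the second. Across all 46 genes the log2 fold change was lower where the CK level was higher, with Spearman correlations of -0.483 at 2 weeks and -0.589 at 6 weeks. The part of this in the ratios was not tested. Slc17a7 over Slc17a6 was 16.7, 18.0 and 17.6 in CKp25 libraries at 6 weeks, against 25.8, 31.5 and 28.2 in CK libraries. At 2 weeks the mean of that ratio was 26.2 ± 2.28 in CKp25 and 33.7 ± 5.36 in CK (SD, n = 3 each). The ratio was lowest in CKp25 at 6 weeks. At 2 weeks the groups all but touched, with 28.3 in the highest CKp25 library and 28.4 in the lowest CK library. Cplx2 over Cplx1 was 2.16, 2.41 and 2.79 in CKp25 libraries at 6 weeks, against 4.00, 3.95 and 3.66 in CK libraries, and 3.82 ± 0.474 in CKp25 and 3.95 ± 0.326 in CK at 2 weeks. Sv2b over Sv2a was 1.01, 1.23 and 1.26 in CKp25 libraries at 6 weeks, against 1.72, 1.69 and 1.68 in CK libraries. Unc13a over Unc13b was 3.30, 3.97 and 3.75 in CKp25 libraries at 6 weeks, against 5.25, 5.37 and 5.39 in CK libraries. In each of the 4 pairs so far the 6-week groups were apart. For Vamp2 over Vamp1 they overlapped, with means of 2.06 ± 0.214 in CKp25 and 2.44 ± 0.724 in CK. Means at 6 weeks were 16.8 ± 1.51 in CKp25 and 22.0 ± 2.34 in CK for Syt1 over Syt2, 2.13 ± 0.203 in CKp25 and 2.95 ± 0.461 in CK for Rims1 over Rims3, and 8.18 ± 0.545 in CKp25 and 12.2 ± 1.32 in CK for Rab3a over Rab3b. At 2 weeks the groups were apart for Syt1 over Syt2 and Rab3a over Rab3b and overlapped for Rims1 over Rims3.

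**Figure D3:**
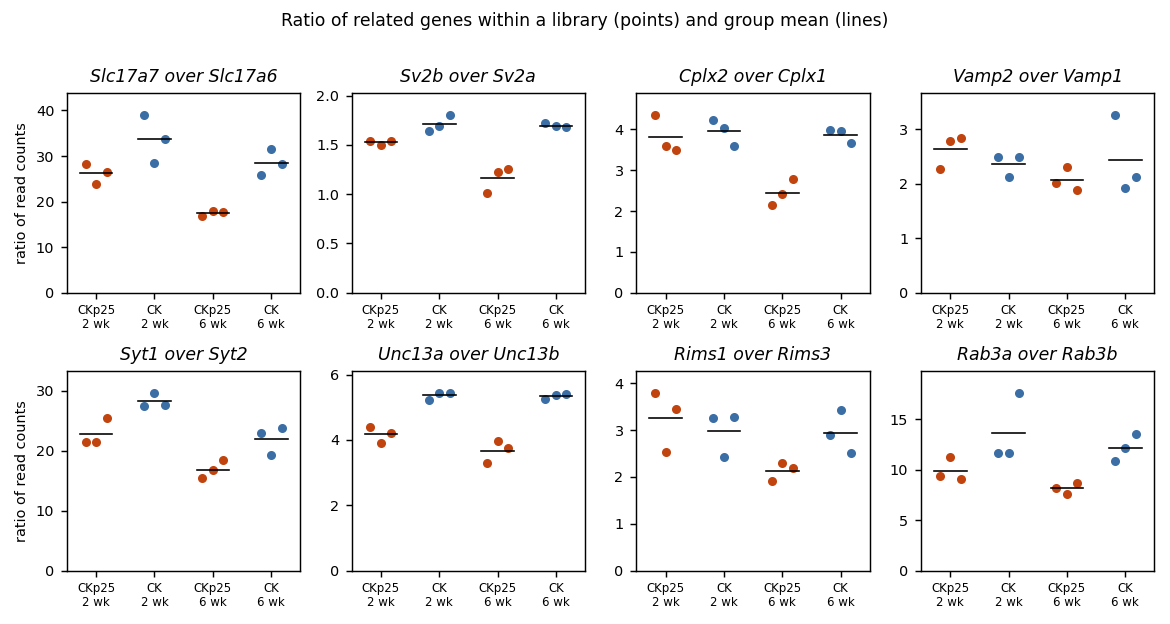
Ratio of the read counts of 2 related genes within each library (points; vertical axes start at 0) and the group mean (lines), for 8 pairs in CKp25 and CK at 2 and 6 weeks. Slc17a7 over Slc17a6, Sv2b over Sv2a, Cplx2 over Cplx1 and Unc13a over Unc13b are lower in all 3 CKp25 libraries of 6 weeks than in any CK library of that time, and the Vamp2 over Vamp1 points overlap.

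Since many of these genes were lower together, the sequence before their start sites was searched for motifs of factors known from neuronal promoters. RefSeq promoter windows (GRCm38.p6) were at hand for 36 of the 46 genes, and the 250 bases before each start were read. The 10 others were Syngr3, Syn3, Snap25, Vamp2, Syt4, Syt5, Syt7, Doc2a, Doc2b and Rims2. Of the genes printed, Slc17a7, Cplx2 and Unc13a had the lowest log2 fold changes at 6 weeks, and Syn1 was the member with the cAMP response element and the RE1 letters. Capitals mark a motif match on either strand, and the letters run 5′ to 3′ on the strand of the gene.
Slc17a7, chr7:45163671-45163920, plus strand: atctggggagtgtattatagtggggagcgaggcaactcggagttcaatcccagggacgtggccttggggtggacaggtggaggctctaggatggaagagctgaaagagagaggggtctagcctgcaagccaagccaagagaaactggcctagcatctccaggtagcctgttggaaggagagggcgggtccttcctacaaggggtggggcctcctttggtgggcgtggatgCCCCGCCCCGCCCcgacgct
Cplx2, chr13:54302306-54302555, plus strand: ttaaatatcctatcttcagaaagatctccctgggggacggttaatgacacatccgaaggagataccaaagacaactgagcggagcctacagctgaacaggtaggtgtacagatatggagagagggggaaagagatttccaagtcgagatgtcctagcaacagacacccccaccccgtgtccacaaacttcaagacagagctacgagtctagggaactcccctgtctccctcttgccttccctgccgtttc
Unc13a, chr8:71671758-71672007, minus strand: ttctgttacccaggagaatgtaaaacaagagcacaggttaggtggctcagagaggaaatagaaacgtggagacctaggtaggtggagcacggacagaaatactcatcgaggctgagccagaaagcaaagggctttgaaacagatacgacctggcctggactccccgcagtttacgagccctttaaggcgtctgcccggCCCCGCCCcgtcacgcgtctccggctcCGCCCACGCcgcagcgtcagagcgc
Syn1, chrX:20920919-20921168, minus strand: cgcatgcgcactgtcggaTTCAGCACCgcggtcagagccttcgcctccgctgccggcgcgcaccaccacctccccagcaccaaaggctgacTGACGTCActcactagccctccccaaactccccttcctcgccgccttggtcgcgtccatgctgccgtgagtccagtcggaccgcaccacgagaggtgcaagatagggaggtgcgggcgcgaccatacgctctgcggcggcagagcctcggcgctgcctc
The windows of the 36 members had a median GC content of 61% and a median of 12.5 CpG sites, beside 60% and 16 over the 10633 tested genes with a window.

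The motifs, chosen with the fold changes known, were searched on both strands. The GC box GGGCGGGG, the binding letters of Sp1, was in 44.4% of the members (16 of 36) and in 34.1% of tested genes. Slc17a7 held it 2 times on the opposite strand, at 20 and 15 bases before the start, and these matches share 3 bases. The Egr site GCGTGGGCG was in 5.56% of the members, namely Unc13a and Synj1, and in 1.25% of tested genes. The cAMP response element TGACGTCA was in 2.78% of the members and 3.06% of tested genes, and the left part of the RE1 element bound by REST, TTCAGCACC, was in 2.78% of the members and 0.376% of tested genes. Syn1 was the only member with either of them. Cplx2, which had the lowest log2 fold change at 6 weeks, held none of these letters in its window. A match describes the sequence and is not a measured binding site.

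Of other genes of the presynaptic terminal, 78 were listed beside the 46 and 77 were tested. At 2 weeks 29 were lower and 2 higher (median -0.21), and at 6 weeks 40 were lower and 3 higher (median -0.25). Among the lowest of those called at 6 weeks were Syt17 (-0.83 ± 0.13, adjusted p = 0.000117) and Rimbp2, for a RIM-binding protein (-0.76 ± 0.10, adjusted p = 1.31e-05). Those higher were Syngr2, a synaptogyrin also found outside neurons (1.46 ± 0.22, adjusted p = 8.22e-05), Dnm2, the dynamin of most tissues (0.39 ± 0.09, adjusted p = 0.00326), and Picalm, a clathrin adaptor of many cell types (0.18 ± 0.07, adjusted p = 0.0417). The count at 2 weeks was 10 without CKp25_2wk_4894, 15 without CK_2wk_4891 or CK_2wk_4893 and 16 without CKp25_2wk_4890. Among these genes none passed the test of a difference between the times by edgeR, and DESeq2 called 2. By edgeR 8 of the 77 had an unadjusted p under 0.05, beside 2077 of all 14457 genes tested.

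The gene lists that follow were made with earlier results of these data known. Genes that mark neurons outside the terminal were also lower, in 12 of 20 cases at 2 weeks and 15 of 20 at 6 weeks, with medians of -0.34 and -0.37 beside the -0.31 and -0.44 of the presynaptic genes. Their summed level was 5070.0 to 5437 CPM in CKp25 libraries at 2 weeks, against 6339 to 6634 CPM in CK libraries, and 4457 to 5274 CPM in CKp25 libraries at 6 weeks, against 6035 to 6822 CPM in CK libraries. Markers of inhibitory interneurons went in both directions. Of 11, Cck alone was called lower, at both times (-0.48 and -0.66), and Pvalb and Npy were called higher at 6 weeks (0.58 and 0.37). Of the 11, 9 had a negative log2 fold change at 2 weeks and 1 at 6 weeks. Their sum was 1041 to 1092 CPM in CKp25 at 2 weeks, against 1146 to 1231 CPM in CK, with no overlap. It was 1201 to 1367 CPM in CKp25 at 6 weeks, against 1155 to 1220.4 CPM in CK, and these ranges overlap. Of 9 markers of dentate granule neurons, 1 was lower and 1 higher at 2 weeks (median -0.24), and 6 were lower at 6 weeks (median -0.63). Their sum was 209.5 to 241 CPM in CKp25 at 6 weeks, against 319 to 389 CPM in CK.

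Markers of glia and vessels called were all higher in CKp25. All 14 microglial markers were higher at each time (medians 2.34 and 2.47), with sums of 1318 to 1674 CPM in CKp25 at 2 weeks, against 310.1 to 324 CPM in CK. Of 12 astrocyte markers, 5 were higher at 2 weeks and 11 at 6 weeks, with sums of 10964 to 13614 CPM in CKp25 at 6 weeks, against 6244 to 6859 CPM in CK. Of 12 oligodendrocyte markers, 1 was higher at 2 weeks, when the sums overlapped (2786 to 3423 CPM in CKp25, against 2776 to 3123 CPM in CK), and 8 were higher at 6 weeks. Of 11 endothelial markers none was called at 2 weeks by edgeR (2 had an unadjusted p under 0.05) and 10 were higher at 6 weeks. CPM are shares of a library scaled by TMM factors. A rise of other genes lowers the share of the presynaptic ones unless the factors offset it. These were 1.03 to 1.07 in CKp25 and 0.949 to 0.994 in CK at 2 weeks, and 0.997 to 1.02 and 0.969 to 0.987 at 6 weeks. The size of any shift that remained was not tested. Markers of tissue next to the hippocampus were looked at for the dissection. Of 12 thalamic and habenular genes 7 were tested and 2 were higher at each time, while Shox2 and Irx2 had 0 reads in all libraries. The summed level of the 12 was 98.9 to 122 CPM in CKp25 at 2 weeks, against 69.5 to 91.5 CPM in CK. At 6 weeks it was 131 to 154 CPM in CKp25, against 91.7 to 103 CPM in CK, without overlap at either time. Of 9 striatal genes tested, 1 was higher and 1 lower at 2 weeks and 1 higher and 2 lower at 6 weeks. The striatal sum was 174 to 188 CPM in CKp25 at 2 weeks, against 185 to 205.0 CPM in CK, and 153 to 173 CPM in CKp25 at 6 weeks, against 204 to 211 CPM in CK, without overlap at 6 weeks. The 10 choroid plexus genes were called at neither time by edgeR, with 0 at an unadjusted p under 0.05, but their sum ran from 152 to 3931 CPM over the libraries and was uneven within every group. The part of such tissue in the presynaptic levels was not tested.

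**Figure D4:**
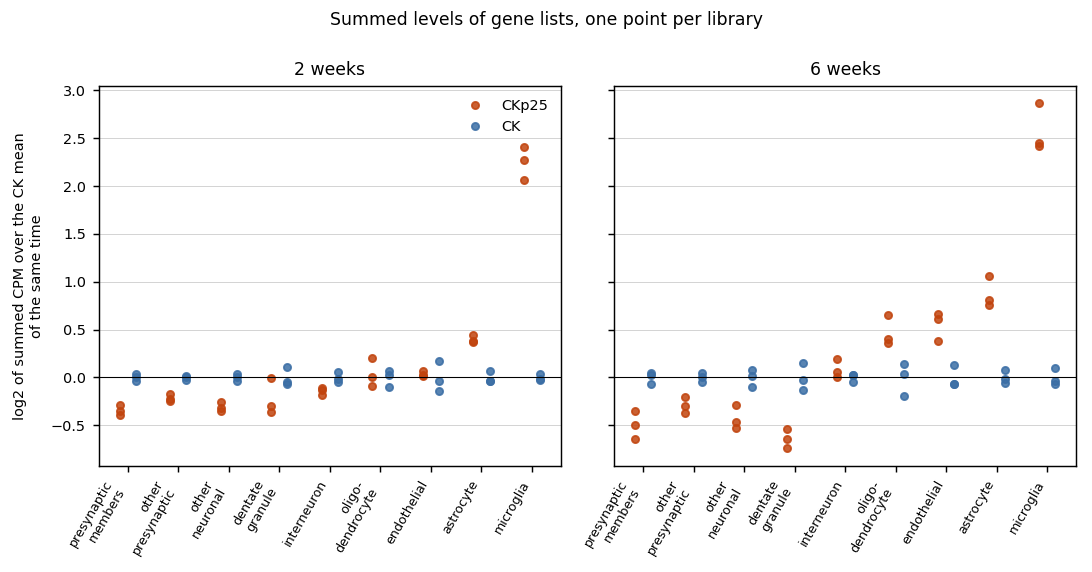
Summed CPM of each gene list in each library, as log2 of the ratio to the CK mean of the same time (vertical axis), for CKp25 and CK at 2 weeks (left) and 6 weeks (right). The 46 presynaptic genes lie below 0 and microglial markers above 2 in every CKp25 library, and interneuron markers lie a little below 0 in CKp25 at 2 weeks and at or above 0 at 6 weeks.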

How the data were processed

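RNA was analysed in 12 libraries, 3 for each of 4 groups. The authors deposited 1 table of counts, unscaled, with Ensembl gene IDs. The submitters' processing notes name HTSeq 0.6.1, Bowtie, Picard and MACS2, and the builds mm9 and NCBIM37. The kit kept strand and removed ribosomal RNA, per the labels' protocols. How HTSeq treated strand is not given, so overlapping antisense genes may share reads. Reads with several alignments were left out of the deposited counts, so near-identical copies are undercounted. The 5 entries that name no gene, 38.1% to 46.9% of reads being outside genes, stayed out of library sizes and tests. Peak lists were not analysed here.

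Symbols came from a supplied ID table, which named 32919 genes (86.6%). Counts were fitted in R 4.3.3 with edgeR 4.0.16 (filterByExpr, TMM, quasi-likelihood test, 4 group means over 12 libraries), and p-values were adjusted by Benjamini-Hochberg over 14457 genes, with a threshold of 0.05. The fits were also run on simulated counts in which a small set of genes changed, equally in both directions. That run cannot check the scaling where many genes change, as here. Alternatives were DESeq2 1.42.0, limma-voom (limma 3.58.1), 2 other scalings, no filter, 2 covariates, 1 time alone and libraries left out. Counts of 2 libraries of a group gave chi-square values per gene between 1.47 and 9.07, all above sampling noise.

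The members, lists, pairs and motifs were chosen with earlier results of these data known. Given in full were, in each role, the genes of lowest p at each time, and the 5 largest changes at each time. Library values of Vamp1, Rims3, Doc2b and Syt2 were added after they were seen. A gene that the rule for the other presynaptic genes would name, by the 3 lowest and 3 highest changes called at 6 weeks, is not reported here.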

Additional observations from a re-analysis of the deposited data

How the results depend on the processing

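No paired analysis was possible because the groups share no library number. Of 25 members called lower at 2 weeks, 15 were called in all 21 alternatives, and of 33 at 6 weeks, 27 were, with no reversal among them. Of members not called, 10 of 21 at 2 weeks and 1 of 13 at 6 weeks (Rims2) were called lower in at least 1 alternative. No alternative called a member higher than CK at either time. Leaving out a library gave 16 to 30 members lower at 2 weeks, 0 to 1 lower in the difference between times, and 2 to 16 lower and 0 to 3 higher within CKp25. The difference between times had 1 member lower by DESeq2, 2 without the filter and 1 with the choroid plexus covariate. Within CKp25, 9 were lower by DESeq2 and 8 by limma-voom, without the filter or with the covariate of reads with several alignments. There, 1 was higher by DESeq2 and 0 without the pair CKp25_2wk_4518 and CK_2wk_4520. At 2 weeks 35 members were lower without the filter, which tested 23038 genes. The cause of the other changes was not tested.

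For the other presynaptic genes, leaving out a library gave 10 to 33 lower and 1 to 2 higher at 2 weeks, 0 to 1 lower in the difference between times, and 3 to 14 lower and 0 to 2 higher within CKp25. The difference had 2 of these other presynaptic genes lower by DESeq2, without the filter and with the choroid plexus covariate, and 1 with the covariate of several alignments. With the 2 libraries left out, 1 was higher at 2 weeks, and within CKp25 4 were lower and 0 higher. Within CKp25, 0 were higher by DESeq2, and 1 was with the other scalings or the choroid plexus covariate.

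Against CK, signs turned among members not called at that time. At 2 weeks the log2 fold change ran, over fits without 1 library, from -0.39 to 0.039 for Sv2c, -0.12 to 0.16 for Rab3b, -0.10 to 0.060 for Syt2, -0.32 to 0.042 for Doc2a and -0.25 to 0.052 for Unc13c. It was 0.0089 for Syt2 with the choroid plexus covariate and 0.00050 for Doc2a with the 2 libraries left out. At 6 weeks it ran from -0.18 to 0.040 for Slc17a6, -0.077 to 0.24 for Rab3b, -0.055 to 0.11 for Syt2, -0.22 to 0.053 for Doc2a and -0.11 to 0.084 for Rims3. It was 0.0071 for Rims3 with upper quartile scaling, and 0.0014 for Sv2c and 0.14 for Unc13c with the covariate of several alignments. Depth limits Sv2c most, with 41 reads in its lowest library.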
